A study of Mus musculus with 11 samples.

Results

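Pluripotency-linked genes were followed through 11 arrays of tissue captured from mouse embryos at E8.5, a stage at which the embryo has left pluripotency and neural crest cells begin to leave the neural tube. The set holds 10 genes of the 19938 that had a probe with a single gene symbol: Pou5f1, Otx2, Nanog, Lin28a, Lin28b, Sall4, Utf1, Tdgf1, Dnmt3b and Zfp42. Each had 1 such probe. The genes were listed by name with their values known, and Pou5f1 and Otx2 were selected on their ratios on these 11 arrays, so both are described and not tested. Neuroepithelium has 3 arrays, neural crest 5 and paraxial mesoderm 3, all from outbred CD1 mice at E8.5, with no mutation or treatment named in any group. Tissue was taken by laser capture from frozen sections, and its RNA was amplified before hybridization. The series title speaks of single cells, but neither cell numbers nor embryos are given for the arrays. What the p-values weigh is thus the spread among arrays, which may be technical, and they are too small if arrays of a tissue share an embryo.

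Pluripotency is the capacity of the early epiblast to form every tissue of the body. Pou5f1 (also called Oct4), Nanog and Sall4 are transcription factors of the network that holds it, Zfp42 (Rex1) and Utf1 are genes that this network keeps active, and Lin28a and Lin28b are RNA-binding proteins that block maturation of the let-7 microRNAs. Otx2 opens the later, primed state of the epiblast and then becomes a gene of the forebrain and midbrain. Tdgf1 (Cripto) is the co-receptor for the ligand Nodal, and Dnmt3b is the methyltransferase that lays down new DNA methylation after implantation. In the mouse, Pou5f1 is known to fade from the body during the early somite stages and to remain in primordial germ cells, and it is also known from early precursors of the cranial neural crest.

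Each deposited value is the linear ratio of an array to a reference of the same probe, near the probe's median over 9 arrays. A gene silent on all arrays and a gene equally active on all arrays both lie near 1, so the ratios give no expression level. No probe reached a ratio of 4 on more than 7 of the 11 arrays, a ceiling that such a reference sets in advance. A gene active in most captures would appear as low on the others. A ratio of 4 or more is called high below, a limit chosen with the values known. Where a capture held several cells, fewer cells of a type and less RNA per cell cannot be told apart.

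Marker genes set several captures apart from their labels. All 10 markers of paraxial mesoderm stayed between 0.806 and 1.43 on every array, so none marked the captures labelled as that tissue. Paraxial mesoderm array 1 was high for 8 of 8 measured markers of primitive red blood cells, where 7.88% of all probes were high. Paraxial mesoderm array 2 was high for 5 of 10 markers of surface ectoderm, against 3.90% of all probes. Of the same 10 markers, 5, 7 and 5 were high on neuroepithelium arrays 1, 2 and 3, so they are not particular to that mesoderm array. Paraxial mesoderm array 3 was high for 3 of 8 measured markers of notochord and floor plate, against 1.83% of all probes. Of 10 neural markers, only Irx3 on neuroepithelium array 3 was high in the neuroepithelium. Of 10 neural crest markers, Snai1 was the 1 that was high on all 5 crest arrays (41.2 to 82.1), and it was near 1 on the other 6. The part of these other cell types' markers in the results was not tested.

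The 250 bases before the annotated start of the 3 genes of the set that were high on any array are printed so that these start regions can be compared; no value here ties them to the ratios. They come from RefSeq on build GRCm38.p6, and the start farthest upstream in the table was taken (of 2 starts for Pou5f1, 4 for Otx2 and 1 for Lin28b). Capitals mark matches to a motif.
Pou5f1, chr17:35505782-35506031, plus strand: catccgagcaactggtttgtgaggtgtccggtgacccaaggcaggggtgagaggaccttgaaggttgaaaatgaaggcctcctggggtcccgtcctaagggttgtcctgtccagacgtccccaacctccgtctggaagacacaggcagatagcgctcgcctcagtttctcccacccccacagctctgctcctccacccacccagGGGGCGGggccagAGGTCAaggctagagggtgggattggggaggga
Otx2, chr14:48667645-48667894, minus strand: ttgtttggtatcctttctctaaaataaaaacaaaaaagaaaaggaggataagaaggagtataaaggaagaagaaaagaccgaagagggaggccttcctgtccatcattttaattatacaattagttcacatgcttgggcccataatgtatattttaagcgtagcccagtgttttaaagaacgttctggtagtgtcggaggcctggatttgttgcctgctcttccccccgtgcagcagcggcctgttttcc
Lin28b, chr10:45470202-45470451, minus strand: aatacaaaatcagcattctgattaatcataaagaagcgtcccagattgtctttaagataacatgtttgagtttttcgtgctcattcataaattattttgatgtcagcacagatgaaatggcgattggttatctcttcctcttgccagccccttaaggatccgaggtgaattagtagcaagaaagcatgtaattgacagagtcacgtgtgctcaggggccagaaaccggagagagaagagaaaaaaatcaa
Both strands were searched for the OTX core GGATTA, the octamer ATGCAAAT bound by Pou5f1 and related factors, the nuclear receptor half-site AGGTCA and the GC box GGGGCGG. Among all 32851 windows of this length in the table, these letters were present in 6.25%, 1.60%, 14.0% and 21.0%. The Pou5f1 window held 1 GC box beginning 46 bases before the start and 1 half-site beginning 33 bases before it, without overlap. The Otx2 and Lin28b windows held none of the 4 motifs. GC made up 62.0% of the Pou5f1 window, 42.0% of the Otx2 window and 39.2% of the Lin28b window, against a median of 52.4% over all windows.

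Pou5f1 (probe 10444853) was high on 1 capture of each tissue. On the neuroepithelium arrays its ratios were 0.990, 1.03 and 45.4. On the neural crest arrays they were 0.975, 0.915, 0.933, 32.6 and 0.913, and on the paraxial mesoderm arrays 1.00, 106 and 0.967. The gene was thus far above its reference on neuroepithelium array 3, neural crest array 4 and paraxial mesoderm array 2, and the other 8 arrays lay between 0.913 and 1.03. The tissues overlapped completely: in each, the high array stood over fellows near 1. RefSeq lists 7 pseudogenes of Pou5f1. The 1 of them with a probe of its own, Pou5f1-rs4, stayed between 0.945 and 1.19 on all 11 arrays, and hybridization of the Pou5f1 probe to transcripts of the others was not tested.

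Group means show the same spread. The mean log2 ratio of Pou5f1 was 1.84 ± 3.17 (SD, n = 3) in neuroepithelium, 0.93 ± 2.29 (n = 5) in neural crest and 2.23 ± 3.90 (n = 3) in paraxial mesoderm. Each standard deviation exceeded its mean. The log2 difference of neural crest from neuroepithelium was -0.92, and it was 0.92 without neuroepithelium array 3. The difference of crest from mesoderm was -1.30, and 0.95 without mesoderm array 2. The difference of mesoderm from neuroepithelium was 0.39, and -1.87 without mesoderm array 2. With array weights in the fit, crest differed from mesoderm by -4.12 and mesoderm from neuroepithelium by 3.28. Single captures therefore set the sign of every tissue difference of this gene.

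Otx2 (probe 10419356) was high on 2 captures, both shared with Pou5f1. Its ratios were 0.959, 0.996 and 112 in neuroepithelium. In neural crest they were 3.61, 0.962, 0.996, 1.00 and 1.02, and in paraxial mesoderm 0.995, 53.6 and 0.957. Neuroepithelium array 3 and paraxial mesoderm array 2 thus carried both genes. Neural crest array 4, with Pou5f1 at 32.6, had Otx2 at 1.00, whereas neural crest array 1, with Otx2 at 3.61, had Pou5f1 at 0.975. The value of 3.61 lies just under the limit for a high ratio and above the other 4 crest arrays.

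The mean log2 ratio of Otx2 was 2.25 ± 3.95 (SD, n = 3) in neuroepithelium, 0.36 ± 0.83 (n = 5) in crest and 1.89 ± 3.34 (n = 3) in mesoderm. Crest lay 1.88 below neuroepithelium on the log2 scale (difference -1.88) and 1.53 below mesoderm (difference -1.53). Without neuroepithelium array 3 the former difference was 0.40, and without mesoderm array 2 the latter was also 0.40. Mesoderm differed from neuroepithelium by -0.36, or by 1.92 without neuroepithelium array 3 and 2.26 with array weights. The weights also took the difference of crest from mesoderm to -3.88. As for Pou5f1, the arrays of the 3 tissues overlapped.

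**Figure D1:**
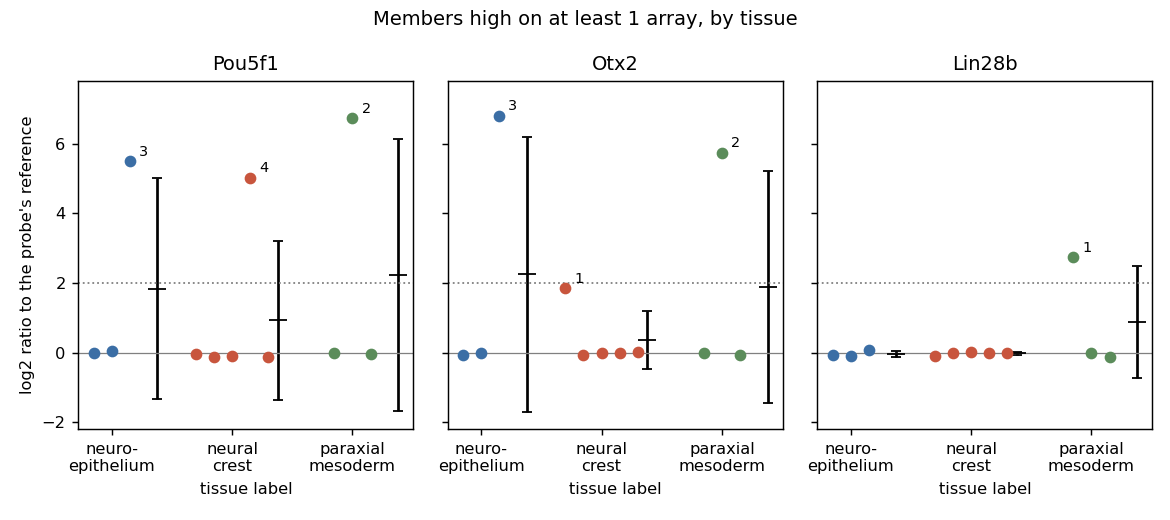
Log2 ratio to the probe's reference (vertical axis) of Pou5f1, Otx2 and Lin28b on each of 11 arrays, by tissue label (horizontal axis). Points are arrays, numbers name arrays above a ratio of 2, black bars give the mean and SD of the tissue, and the dotted line marks a ratio of 4; each tissue has at most 1 high array per gene, with its other arrays near 0, apart from Otx2 at 3.61 on neural crest array 1.

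Lin28b (probe 10368981) was high on another capture. Its ratio was 6.72 on paraxial mesoderm array 1, and 1.00 and 0.924 on the other mesoderm arrays. The neuroepithelium arrays had 0.953, 0.927 and 1.05, and the crest arrays 0.932 to 1.02. Mesoderm array 1 alone stood out, and it carried neither Pou5f1 (1.00) nor Otx2 (0.995). The log2 difference of mesoderm from neuroepithelium was 0.91 (SE 0.63), and that of crest from mesoderm -0.90 (SE 0.57). Neither passed in limma (adjusted p = 1.00 for both, higher than every other array on 1 of 3 mesoderm arrays), and without mesoderm array 1 the differences were -0.02 and 0.03.

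The same capture held the embryonic red cell genes, among them the globin Hbb-bh1 (269) and the erythroid regulator Klf1 (46.6). The summed ratio of the 8 erythroid markers was 700 there and 7.70 to 8.61 on the other 10 arrays. In the mouse, Lin28b is known for its role in the fetal programme of blood cells. Paraxial mesoderm array 1 also had the largest share of high probes, 7.88% of all 21789 single-symbol probes, and 1 of the 10 genes of the set was among them. The part of the red cell RNA in the Lin28b ratio was not tested.

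The remaining 7 genes stayed near their reference on every array. Their 77 values ran from 0.764 for Tdgf1 to 1.496 for Sall4, and 0.764 was also the lowest value of all 10 genes. Among all single-symbol probes 71.9% lay within 2-fold on all 11 arrays, so 7 of 10 genes is close to that background. Nanog ran from 0.827 on neural crest array 5 to 1.33 on paraxial mesoderm array 3. On the captures high for Pou5f1 it was 0.943, 1.06 and 0.967. Sall4, a zinc finger partner of Pou5f1, had 0.866, 0.785 and 0.985 there, and its highest values were 1.496 on neuroepithelium array 2 and 1.43 on neural crest array 1.

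Zfp42 had the narrowest range of the set, 0.933 to 1.06, followed by Utf1 with 0.926 to 1.14. On the captures high for Pou5f1, Zfp42 was 1.01, 1.05 and 0.950, and Utf1 was 0.932, 1.14 and 1.12. Lin28a was lowest on paraxial mesoderm array 1 (0.785), where Lin28b was high, and highest on array 3 of that tissue (1.30). Tdgf1 was lowest on paraxial mesoderm array 3 (0.764) and highest on neural crest array 4 (1.29), a capture with Pou5f1. None of these genes was high on a capture with Pou5f1.

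**Figure D2:**
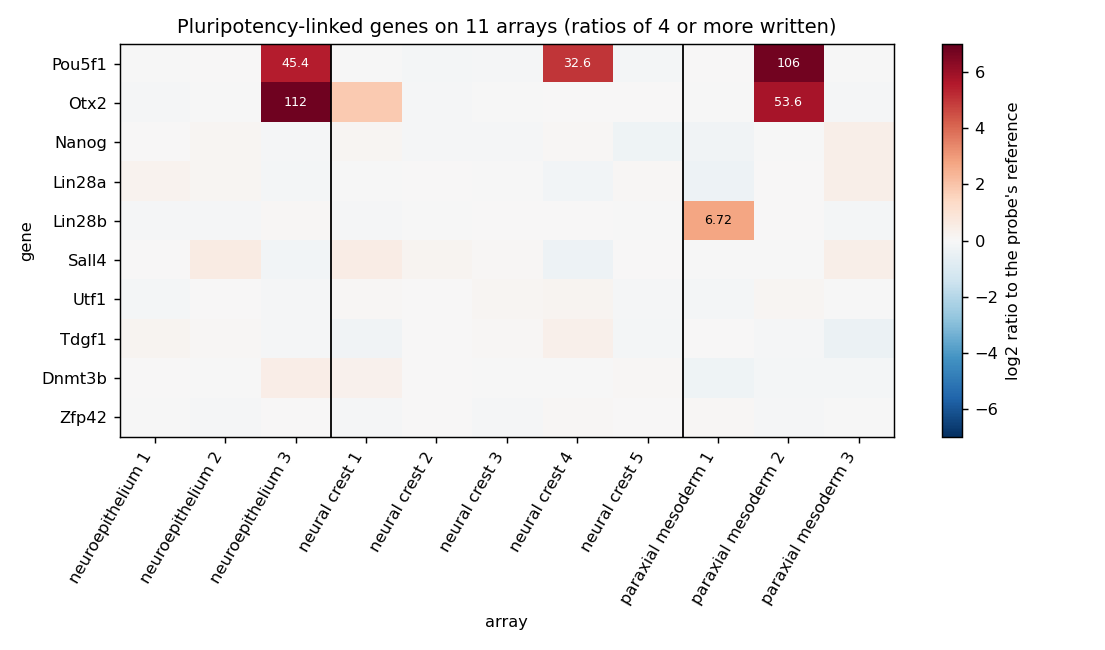
Log2 ratio to the probe's reference (colour) of the 10 pluripotency-linked genes (rows) on the 11 arrays (columns, vertical lines between tissues), with ratios of 4 or more written in the cells. The 6 written values belong to Pou5f1, Otx2 and Lin28b, and the other 7 genes lie between 0.764 and 1.496.

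Dnmt3b was lowest on the mesoderm arrays, but its differences did not pass. Its ratios were 0.799, 0.899 and 0.898 in paraxial mesoderm, and 0.974 to 1.36 on the other 8 arrays. All 3 mesoderm arrays thus lay below all others, as they did for 0.473% of all probes. Dnmt3b is singled out here after its values were seen. It was highest on neuroepithelium array 3 (1.36), followed by neural crest array 1 (1.24). Mesoderm was lower than neuroepithelium by a log2 difference of -0.35 (SE 0.14), and crest was higher than mesoderm by 0.29 (SE 0.12). Neither passed in limma (adjusted p = 1.00 for both over 21789 probes, unadjusted 0.0332 and 0.0461, lower on 3 of 3 mesoderm arrays). Groups without overlap were found for 1 of the 10 genes in each of these comparisons, where 6.86% of all probes had none between mesoderm and neuroepithelium and 2.63% between crest and mesoderm. Between crest and neuroepithelium 0 of the 10 genes were without overlap, against 2.95% of probes.

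Of the 8 genes other than Pou5f1 and Otx2, 0 passed in any of the 3 tissue comparisons in limma. At an unadjusted p under 0.05 there were 0 of 8 between crest and neuroepithelium and 1 of 8, Dnmt3b, in each of the other comparisons. Among all 21789 probes, an unadjusted p under 0.05 in limma was found for 604 between crest and neuroepithelium. The number was 624 between crest and mesoderm and 525 between mesoderm and neuroepithelium. Over all probes 6 (0.0275%) passed between crest and neuroepithelium, 2 (0.00918%) between crest and mesoderm and 3 (0.0138%) between mesoderm and neuroepithelium. The median log2 difference of the 8 genes was -0.04, -0.02 and 0.02 in the same order, and that of all probes 0.00 in each.

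High ratios of the set were then read against the share of high probes on each array. On neuroepithelium array 3, 2 of the 10 genes were high, where 5.51% of probes were. On paraxial mesoderm array 2 there were 2 of 10 against 3.90%, and on neural crest array 4 there was 1 of 10 against 2.00%. The high genes of the set on these captures were Pou5f1 and Otx2 alone. Both were selected on these ratios, so the counts are no test against the shares. On the 7 arrays with 0 of 10 genes high, the share of high probes was 3.52% and 2.85% on neuroepithelium arrays 1 and 2, and 1.97%, 5.6%, 5.13% and 7.33% on neural crest arrays 1, 2, 3 and 5. It was 1.83% on paraxial mesoderm array 3. The shares on the captures with Pou5f1 ran from 2.00%, close to the lowest of all arrays (1.83%), to 5.51%, below the highest (7.88% on paraxial mesoderm array 1). At least 1 high array was found for 3 of the 10 genes (the selected Pou5f1 and Otx2, and Lin28b) and for 21.0% of all probes.

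**Figure D3:**
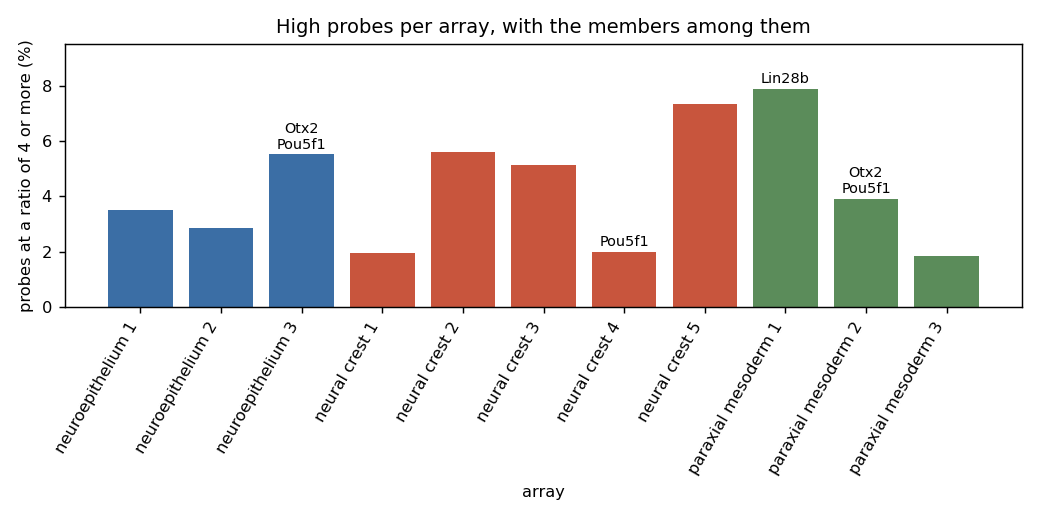
Share of the 21789 single-symbol probes at a ratio of 4 or more (vertical axis, percent) on each array (horizontal axis), coloured by tissue, with the pluripotency-linked genes among them written above the bars. Pou5f1 appears on arrays with 5.51%, 2.00% and 3.90% of probes high, and no gene of the set appears on neural crest array 5 at 7.33%.

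Of all probes, 20 were high on the 3 captures that carried Pou5f1 (neuroepithelium array 3, neural crest array 4 and paraxial mesoderm array 2). These are 1.67%, 4.60% and 2.36% of the high probes of those arrays. The other 19 were also high on further arrays, and Pou5f1 was the only probe high on these 3 and on no other. The 3 captures were picked by Pou5f1 itself and other sets of 3 arrays were not counted, so this is no separate finding. Across all probes, 3.13% were high on exactly 3 arrays. Neuroepithelium array 3 and paraxial mesoderm array 2 shared 230 high probes, 19.2% and 27.1% of their lists, and 36 of these (35 genes, Otx2 among them) were high on no other array. Neuroepithelium array 3 and neural crest array 4 shared 129, 10.8% and 29.7% of their lists, and neural crest array 4 and paraxial mesoderm array 2 shared 80, 18.4% and 9.42%. Other pairs of arrays were not counted, so whether these overlaps are unusual was not tested.

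By Pearson's r, Pou5f1 and Otx2 were the most alike pair of the set, but not by rank. Pearson's r of their log2 ratios over the 11 arrays was 0.78, and the next of the 45 pairs, Nanog with Lin28a, had 0.62. Spearman's rho of Pou5f1 and Otx2 was 0.44, below that of 4 other pairs, the highest being Lin28a with Sall4 at 0.55. Without the 2 captures that carried both, r over the 9 other arrays was -0.11. The likeness rests on those captures and is given as a description.

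The genes most like Pou5f1 by this measure, over the 11 arrays, were Erc1 (r 0.90), Pole2 (0.89), Araf (0.87), Plekhd1 (0.86), Dexi (0.86), Triap1 (0.84), 2410002F23Rik (0.84), Tmem54 (0.84), Vps26b (0.84) and Tmed3 (0.84). Pole2, a subunit of DNA polymerase epsilon, was the 1 gene of these 10 that was high on neural crest array 4 too: its ratios were 54.0, 143 and 103 on the captures with Pou5f1, and 17.4 on neural crest array 5. Erc1, a scaffold protein of the cell cortex and of vesicle docking, had 7.52, 2.10 and 42.2 on those captures. Plekhd1 and 2410002F23Rik never exceeded 1.09 and 1.20, so they correlated with Pou5f1 without large changes of their own. Plekhd1 was highest on neural crest array 4 (1.09). The other 6 were highest on paraxial mesoderm array 2 and next highest on neuroepithelium array 3. Pou5f1 was high on both arrays, so the choice by r favoured this.

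The 10 genes most like Otx2 were Rrp36 (r 0.98), Slc25a46 (0.97), Ext1 (0.97), Lyrm4 (0.97), Tmem54 (0.97), Dexi (0.96), Vps26b (0.96), Zfand1 (0.96), Amer1 (0.96) and Grb7 (0.95). All 10 were high on neuroepithelium array 3 and paraxial mesoderm array 2. They were picked by r with Otx2, which was high on these arrays alone, so this is no separate finding. Ext1, which builds heparan sulfate chains, had ratios of 30.7 and 28.3 on these arrays. Amer1, a regulator of Wnt signalling, had 32.1 and 67.4, and the signalling adaptor Grb7 had 30.4 and 11.5. Dexi, Tmem54 and Vps26b were on both lists of 10. None of the 10 was high on neural crest array 4.

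**Figure D4:**
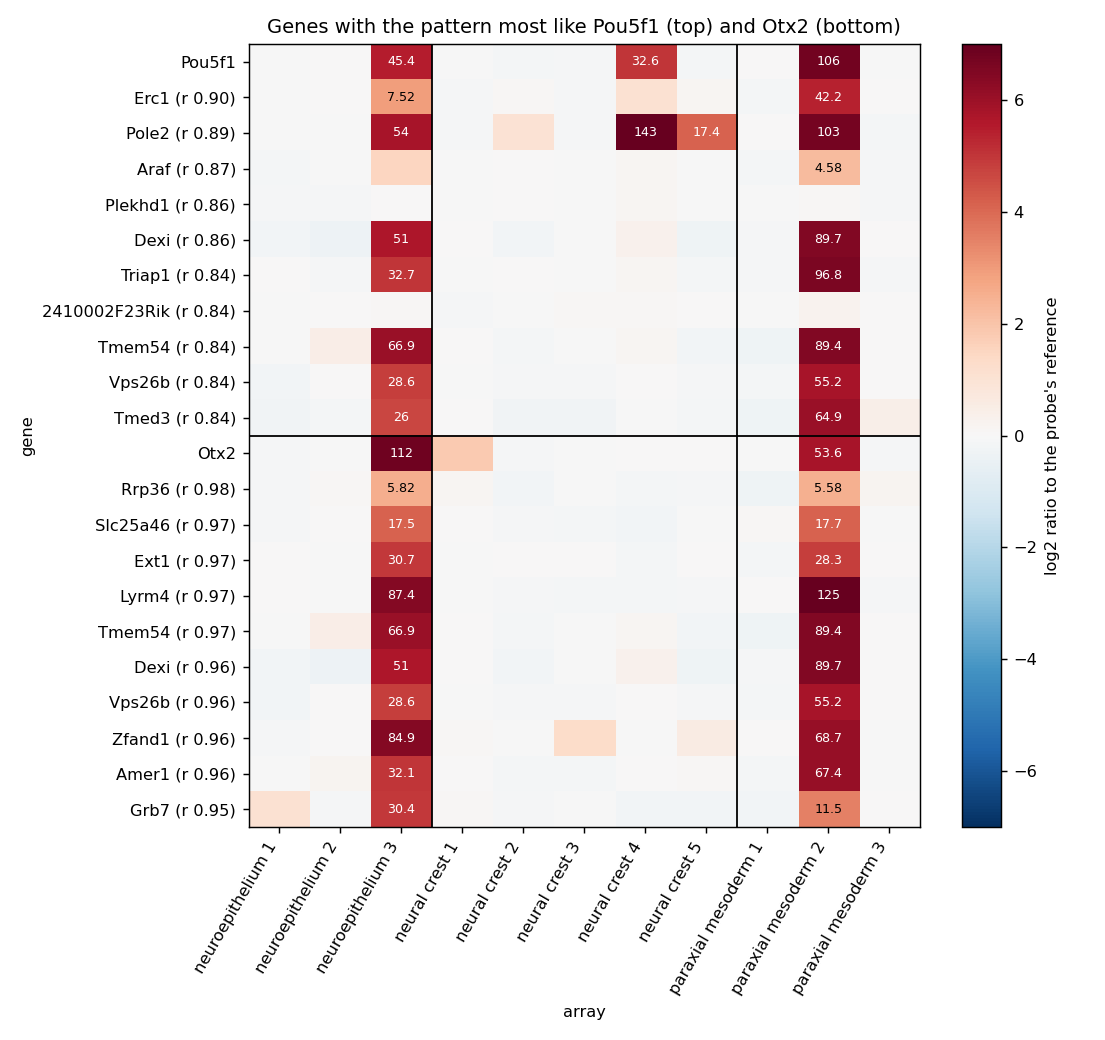
Log2 ratio to the probe's reference (colour) of Pou5f1 with the 10 probes most correlated with it (upper block) and of Otx2 with its 10 (lower block), on the 11 arrays (columns), with ratios of 4 or more written and Pearson's r over the 11 arrays in brackets. High values gather on neuroepithelium array 3 and paraxial mesoderm array 2, where Pou5f1 and Otx2, on whose ratios the probes were picked, were high. Pole2 alone joins Pou5f1 on neural crest array 4.

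Among 19 other measured genes of the pluripotent cell network, Eras, a Ras family member of embryonic stem cells, was the 1 that was high, at 28.1 on paraxial mesoderm array 2, a capture with Pou5f1, and 0.932 to 1.13 on the other arrays. Sox2, the partner of Pou5f1 on DNA, lay at 1.03, 0.887 and 0.980 on the captures with Pou5f1 and reached 2.70 on paraxial mesoderm array 3. Esrrb, Klf4, Prdm14, Dppa2, Dppa4 and Nr5a2 stayed within 2-fold on all arrays, as did 17 of the 19. Thus 1 of the 19 was high on paraxial mesoderm array 2, where 3.90% of all probes were, and 0 of 19 on neuroepithelium array 3 and neural crest array 4, where 5.51% and 2.00% were. These counts are too small to set the list apart from all probes. Of the probes of this list, and of those for epiblast, germ cell, let-7, DNA methylation, Nodal, caudal, Sall and Otx2 territory genes, 0 passed in any tissue comparison in limma.

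Among 14 measured genes of the implanted epiblast, Cldn6, a tight junction gene, was high on the same captures as Otx2, with 14.3 on neuroepithelium array 3 and 25.1 on paraxial mesoderm array 2. It had 2.86 on neuroepithelium array 2 and 0.801 to 1.35 elsewhere. No other gene of that list, Nodal and Pou3f1 included, was high on any array. Thus 1 of the 14 was high on at least 1 array, against 21.0% of all probes. On neuroepithelium array 3 and paraxial mesoderm array 2 it was 1 of 14 each, where 5.51% and 3.90% of all probes were high. These counts are too small to set the list apart from all probes. Foxd3, a factor of the epiblast and of early neural crest named after its values were seen, lay just under the limit on neural crest array 4 (3.99), where Pou5f1 was high, and at 1.00 and 0.935 on the other captures with Pou5f1.

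Germ cell genes were measured because Pou5f1 remains in germ cells at this stage. Of 15, 3 were high on at least 1 array, a share near the 21.0% of all probes. Ifitm3, a membrane protein of nascent germ cells and of many other cells, was high on neuroepithelium array 3 (78.8) and on paraxial mesoderm array 3 (80.3). It lay at 0.884 and 0.984 on the other captures with Pou5f1, while Pou5f1 was 0.967 on mesoderm array 3. Prdm1 (0.945 to 1.06), Prdm14 (0.901 to 1.15), Nanos3 (0.873 to 1.21) and Dazl (0.970 to 1.03) stayed near 1 throughout. Tfap2c, a germ cell regulator like Prdm1 and Prdm14, did not. It was high on neural crest array 5 alone (11.2) and had 3.18 on neural crest array 3. The interferon-induced gene Ifitm1 had ratios of 4.41 and 4.92 by 1 probe, and 2.96 and 4.17 by its other, on neuroepithelium arrays 1 and 2, where Pou5f1 was near 1. On the captures with Pou5f1 the former probe gave 1.00, 0.145 and 2.58. The summed ratio of the list was 22.9 to 94.6 in neuroepithelium, 15.2 to 28.8 in crest and 14.6 to 102 in mesoderm, and Ifitm3 alone made up most of the sum on both arrays where it was high.

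Genes of the Otx2 territory in the forebrain and midbrain gave 0 high values of 19 measured on the captures with Otx2, where 5.51% and 3.90% of all probes were high. Hesx1, Lhx2, Rax, Fezf1, En1 and Otx1 were among the 16 that stayed within 2-fold on all arrays. Six3, a forebrain regulator chosen for mention after its values were seen, was at 3.72 on paraxial mesoderm array 2, just under the limit, and at 0.849 on neuroepithelium array 3. Wnt1, a gene of the midbrain and dorsal neural tube, was high on neural crest array 2 alone (32.9), where Otx2 was 0.962.

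In the Nodal pathway, in which Tdgf1 acts as co-receptor, 3 of 16 measured genes were high on at least 1 array, a share near the 21.0% of all probes. The ligand Nodal (0.852 to 1.20), its inhibitors Lefty1 (0.834 to 1.14) and Lefty2 (0.904 to 1.18) and the Tdgf1 relative Cfc1 (0.871 to 1.05) stayed near 1. The receptor Acvr2b was high on neuroepithelium array 3 (7.44) and on neural crest arrays 2 (4.44) and 3 (9.04). Foxh1, the DNA-binding partner of the Smad effectors, was high on neuroepithelium arrays 2 (53.4) and 3 (17.9) and paraxial mesoderm array 1 (32.8). The effector Smad4 was high on neural crest array 1 (23.9), where Otx2 was 3.61. The other 13 genes stayed within 2-fold on all arrays. Among 16 measured caudal epiblast genes, 2 were high on at least 1 array, against the same 21.0%. The Wnt target Sp5 was high on neuroepithelium array 3 (9.07) and neural crest array 3 (4.33), and Fgf17 on neural crest array 2 (5.71).

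Of the genes of the Lin28 and let-7 pathway, 8 of 15 measured were high on at least 1 array, on arrays of all 3 tissues, where 21.0% of all probes were high on any array; the difference was not tested. The let-7 target Igf2bp1 was high on neuroepithelium arrays 2 (89.7) and 3 (84.0), neural crest arrays 1 (30.5) and 5 (14.5) and paraxial mesoderm array 1 (21.5) by 1 of its 2 probes, whereas the other probe disagreed, at 0.568 to 3.14 on all arrays. The cyclin Ccnd2 was high on neuroepithelium array 3 (31.3), neural crest arrays 2 (5.22) and 5 (36.1) and paraxial mesoderm arrays 1 (8.12) and 2 (8.86). Ccnd1 was high on neural crest array 4 (6.09) among the captures with Pou5f1, and also on crest arrays 2 (4.38) and 5 (13.6) and mesoderm array 3 (51.4). On paraxial mesoderm array 1, where Lin28b was high, Igf2bp3 (7.15) and the microRNA processing factor Dgcr8 (5.73), both named after their values were seen, were high as well, and Igf2bp3 was higher on neuroepithelium array 1 (18.1).

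Of 13 measured DNA methylation genes, 2 were high on at least 1 array, where 21.0% of all probes were. The chromatin remodeller Hells was high on paraxial mesoderm array 2 (6.53), with 2.88 on neuroepithelium array 3 and 3.96 on neuroepithelium array 1. Uhrf2 was high on neural crest array 3 (7.35), with 3.19 on neural crest array 2. Dnmt1 (0.903 to 1.26) and Dnmt3l (0.973 to 1.16) stayed near 1, and Dnmt3a reached 3.54 on paraxial mesoderm array 1. The 3 other Sall genes included Sall1, which was high on neural crest array 1 (15.5), where Sall4 had 1.43.

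Markers of epithelium were high on both captures with Otx2 and also on captures without it. Of 10 surface ectoderm markers, 5 were high on neuroepithelium array 3 and 5 on paraxial mesoderm array 2. The tight junction gene Cldn7 was 42.0 and 92.2 on these arrays, and the simple epithelial keratins Krt18 and Krt8 were 78.6 and 33.9, and 88.8 and 34.4. Krt8 was also high on neural crest array 3 (36.3) and paraxial mesoderm array 3 (30.5), where Otx2 was near 1. Epcam (37.4) and Grhl2 (25.03) were high on neuroepithelium array 3 and at 1.00 on mesoderm array 2, where Krt19 (65.0) and Cldn4 (45.1) were high. The summed ratio of the list was 227 to 350 in neuroepithelium, 8.74 to 45.2 in crest and 8.40 to 330 in mesoderm. Neuroepithelium arrays 1 and 2 had the list at 281 and 350 with Otx2 at 0.959 and 0.996, and Pou5f1 was high on neural crest array 4 with the list at 9.93. On the last, 0 of the 10 markers were high.

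Markers of the labelled tissues also differed between the captures with Pou5f1. Irx3, a neural tube gene, was 10.1 on neuroepithelium array 3 and 4.64 on paraxial mesoderm array 2. Tfap2b, a crest factor, was 22.6 on neuroepithelium array 3, and 27.9, 21.4 and 51.3 on neural crest arrays 2, 3 and 5. Neural crest array 4 had Snai1 at 54.9 and Tfap2b at 0.936, and Snai1 was its 1 high crest marker of 10, with Foxd3 next. Markers of visceral endoderm (0.774 to 1.43) and endothelium (0.872 to 1.21) stayed within 2-fold on all arrays. Among trophoblast markers Krt7 was high on neuroepithelium array 3 (16.2), and of the gut endoderm markers Cldn6 was high on the captures with Otx2. Their part in the Pou5f1 and Otx2 ratios was not tested.

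**Figure D5:**
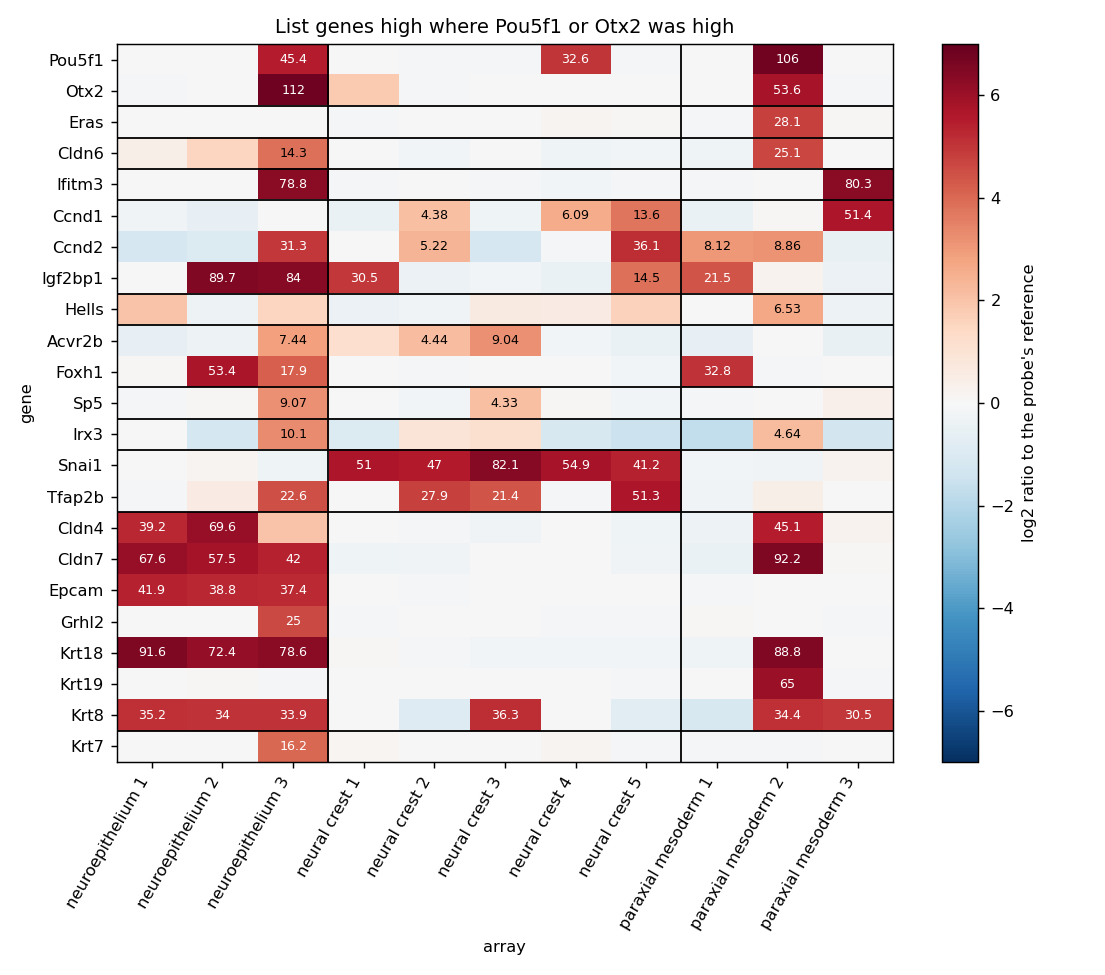
Log2 ratio to the probe's reference (colour) of Pou5f1, Otx2 and the 21 list genes that were high on at least 1 of the captures with Pou5f1 (rows, horizontal lines between lists) on the 11 arrays (columns), with ratios of 4 or more written. Krt18, Krt8 and Cldn7 are high on neuroepithelium array 3 and paraxial mesoderm array 2, as Otx2 is, and also on neuroepithelium arrays 1 and 2, where Otx2 is near 1. Krt8 is high on neural crest array 3 and paraxial mesoderm array 3 too. On neural crest array 4 Snai1, high on all 5 crest arrays, and Ccnd1 are the plotted list genes that are high.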

How the data were processed

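Per the submitters' processing notes, the arrays were processed with RMA and build mm9, with no version given. The deposited values are linear ratios. On 8 arrays the median was 1, and in 26141 probes exactly 1 of these arrays was at 1 (within 1e-05) with 3 or 4 others below it, so the authors' reference is close to the median over 9 arrays, of which 1 is not used here. Neuroepithelium array 2 and neural crest arrays 3 and 5, with medians of 1.001, 0.991 and 1.006, do not appear to be among those 9 arrays. The effect of this on the tissue differences was not tested. No source used here says how the authors made the ratio. The lowest ratio was 0.01.

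Of 35557 probes 28856 had values, and 21789 of these had 1 gene symbol in the platform annotation; 21698 were matched by Entrez identifier to RefSeq names of GRCm38.p6 and 0 symbols changed. All 11 columns were matched to samples, and 0 were left out. Correlations between arrays ran from -0.01 to 0.36, so no pair was a duplicate. The number of arrays limits the precision.

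Log2 ratios were fitted with lmFit and eBayes in limma 3.58.1 (R 4.3.3), the 3 tissues together, with Benjamini-Hochberg adjustment over 21789 probes and a two-sided threshold of 0.05. No intensity trend was used, since ratios carry no intensity. The fit was tested on simulated data. Named genes were all 10 members, list genes at a ratio of 4 or more on a capture high for Pou5f1 or Otx2, and the 10 probes most correlated with each; the other genes of the lists that the text names were chosen after their values were seen, as examples. Members and lists were chosen with earlier results of these data known. The limit of 4, the fit without a trend and the 4 motifs were chosen with them known, the motifs after the sequences had been seen. RefSeq had a start region for 9 of the 10 members. Alternatives were an intensity trend, array weights, other normalizations and filters, a replicate block and leaving out each array.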

Additional observations from a re-analysis of the deposited data

Results flagged for a closer look

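Values far from their group were looked for in the 5 crest arrays, the only group large enough, by the gap to the nearest array over the whole range on the log2 scale, for 31 probes. The gap exceeded Dixon's limit of 0.71 for 5 of them. Chance passes this limit in about 1 of 20 groups, but Pou5f1 and Otx2 were selected on these ratios and the list genes were kept for high values on captures with either gene, so the gaps are a description and the count is no test. Pou5f1 on neural crest array 4 (32.6, gap 0.982 of the range) stood above arrays at 0.913 to 0.975. Otx2 on neural crest array 1 (3.61, gap 0.955) stood above arrays at 0.962 to 1.02. The others were Sp5 on neural crest array 3 (4.33, gap 0.869), Krt8 on the same array (36.3, gap 0.848) and Krt18 on neural crest array 1, at 1.04 (gap 0.805) within a range of 0.863 to 1.04.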

How the results depend on the processing

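In each of the 21 alternative settings 0 of the tested members passed in any comparison; the lowest adjusted p in limma was 0.716, for Dnmt3b with array weights. Leaving out probes within 2-fold on all arrays removed 7 of the 10 members and left Lin28b as the only one tested. Counts over all probes moved more, and the cause was not tested. Between crest and neuroepithelium, 6 probes passed, 2 with an intensity trend, 10 with only the compared tissues, and 5 to 20 with 1 array left out (15, 20 and 16 without neuroepithelium arrays 1, 2 and 3, 11 without crest array 1). Between crest and mesoderm, 2 passed in limma, 0 with the trend (634 at unadjusted p under 0.05), 1 with quantile normalization, and 1 to 45 with 1 array left out (4, 12 and 45 without mesoderm arrays 1, 2 and 3, 5 without crest array 1, 1 without crest array 3 or neuroepithelium arrays 2 or 3). Between mesoderm and neuroepithelium, 3 passed, and 3 to 40 with 1 array left out (11, 13 and 12 without neuroepithelium arrays 1, 2 and 3, 7, 14 and 40 without mesoderm arrays 1, 2 and 3, 5 without crest array 2).

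The log2 difference of Lin28b ran from -1.397 to 0.0338 between crest and mesoderm and from -0.0205 to 1.410 between mesoderm and neuroepithelium with 1 array left out; it reversed in both only without mesoderm array 1, the array that held its high value. The differences of Pou5f1 between crest and neuroepithelium and between crest and mesoderm were -1.93 and -2.32 with the replicate block. Replicate numbers 4 and 5 exist in crest alone, so the block takes crest arrays 4 and 5 out of these differences. Crest array 4 held the high Pou5f1 value of that tissue (32.6), so the shift cannot be read as an effect of pairing. Dnmt3b kept its direction in all 20 settings that held it, at 0.22 to 0.32 between crest and mesoderm and -0.44 to -0.19 between mesoderm and neuroepithelium. The 6 high values of the set were 7 at a limit of 2, 5 at a limit of 8, and 4 to 6 with 1 array left out (4 without neuroepithelium array 3 or mesoderm array 2), the last an alternative chosen after seeing the data.

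Same-numbered arrays of different tissues did not deviate together: their 9 correlations ran from -0.15 to 0.05, and 0 of 9 arrays correlated best with their own number. The replicate block gave 6, 3 and 2 probes in the same order and 0 members. The number of arrays limits the precision, and ratios carry no signal over background.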
